A study of Mus musculus with 6 samples.

Results

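The genes of TNF receptor-associated factors (Traf1 to Traf6) and of 3 inhibitors of apoptosis (IAPs: Birc2, Birc3 and Xiap) were described in primary hepatocytes of Bl6/N mice exposed to TNF. They were chosen by symbol, and all 9 were found among the 19764 genes of the deposited table. Control and TNF cells, 3 libraries each, were kept for 16 h in a medium with 5 mM glucose meant to starve them. Both groups then received 10 µM WY-14643, which activates PPARα, and 1 µM of the glucocorticoid corticosterone for 8 h. TNF cells got 1 ng/ml TNF during those 8 h and Control cells got vehicle, so every library carries both nuclear receptor ligands. The labels give neither the age of the mice nor the source of each replicate (animal or culture), so the spread behind the p-values may be technical.

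TRAFs are adaptors that bind the cytoplasmic tails of TNF receptor family members and of Toll-like and interleukin-1 receptor complexes. At the TNF receptor, where TRADD and RIPK1 gather, TRAF2 is recruited and brings in the ubiquitin ligases cIAP1 (encoded by Birc2) and cIAP2 (Birc3). Their ubiquitin chains build the platform for the kinases that activate NF-κB and MAP kinases. TRAF3, together with TRAF2 and the cIAPs, also keeps the kinase NIK (Map3k14) low and so restrains the noncanonical NF-κB pathway, and XIAP inhibits caspases directly. In hepatocytes this machinery decides between survival and death after TNF, and Birc3, Traf1 and Traf2 are known NF-κB target genes in many cells.

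Levels are CPM, read counts scaled to library size, and changes are differences of log2(CPM + 1), TNF minus Control. A limma fit across 12293 genes was made without a block ("unpaired") and with the replicate number as a block ("blocked"), because same-numbered Control and TNF libraries deviated together. "Rose" and "fell" are used of genes with a Benjamini-Hochberg adjusted p under 0.05 in the blocked fit. Of the 9 genes, 8 passed the filter on low counts and Traf1 did not. Birc3, Birc2, Traf3 and Traf2 rose, Xiap fell, and Traf4, Traf5 and Traf6 did not pass. Over all tested genes the blocked fit called 20.6%, with 9.40% higher and 11.2% lower. The unpaired fit called Birc3 alone of the 9 genes, and 0.431% of all tested genes, with 0.358% higher and 0.0732% lower. The median change of the 8 tested genes was 0.20 on the log2 scale, and that of all tested genes was -0.01.

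The stretches upstream of the 4 genes that rose are shown because these genes moved in the same direction. They are given 5′ to 3′ on the gene's strand, from RefSeq (GRCm38.p6, the assembly of mm10). For Birc3, Birc2 and Traf2 they are the part of the 250 bases before the counted start that lies outside the gene as annotated. The Birc3 stretch is chr9:7873206-7873420 and the Birc2 stretch chr9:7837132-7837307. Traf3 is shown by 30 bases that end at the base before its counted start, chr12:111166340-111166369, with the match to the NF-κB consensus in capitals; these bases precede the counted start but lie inside the gene as annotated. Traf2 is shown by chr2:25546941-25547190. Birc3, Birc2 and Traf2 lie on the minus strand and Traf3 on the plus strand.
Birc3: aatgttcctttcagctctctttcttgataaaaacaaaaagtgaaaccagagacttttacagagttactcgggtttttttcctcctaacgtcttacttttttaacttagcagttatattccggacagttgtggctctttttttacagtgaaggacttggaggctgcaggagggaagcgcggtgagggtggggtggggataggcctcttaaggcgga
Birc2: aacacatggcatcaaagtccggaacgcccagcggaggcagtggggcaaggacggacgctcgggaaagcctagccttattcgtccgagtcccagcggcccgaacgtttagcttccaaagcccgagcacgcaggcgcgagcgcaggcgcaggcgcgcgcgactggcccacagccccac
Traf3: cgcgcgcccaggcggcccgcGGGGATTTCC
Traf2: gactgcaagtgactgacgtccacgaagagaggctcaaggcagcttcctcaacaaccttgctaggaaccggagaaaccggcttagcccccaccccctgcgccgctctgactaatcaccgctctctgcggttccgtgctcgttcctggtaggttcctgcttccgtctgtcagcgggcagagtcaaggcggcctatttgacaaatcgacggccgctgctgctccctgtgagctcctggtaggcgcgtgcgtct

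The neighbouring paralogs Birc3 and Birc2 have unlike upstream windows. Over the whole 250 bases the Birc3 window holds 43.6% G and C with 6 CpG pairs, and the Birc2 window 68.4% with 31 CpG pairs. Traf3 has the most GC-rich window of the 9 genes, at 85.2%, while the median over all 32851 windows of that length is 52.4%. A match to the NF-κB consensus, on either strand, was found in the window of Traf3 alone among the 9, and in 7.25% of all windows. A related form leaves the middle bases free but fixes a base that the consensus lets vary, so it need not take in every consensus match. That form was found on either strand in the windows of Traf3 (the same letters) and Traf5 and in 16.5% of all windows. A match describes these letters only; sites farther from the start were not searched.

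Birc3, whose protein cIAP2 is a ubiquitin ligase of the TNF receptor complex, changed most. It was at 50.4, 52.1 and 54.9 CPM in Control 1, 2 and 3. With TNF it was at 96.6, 89.7 and 111 CPM in the same order. The lowest TNF library lay well above the highest Control library, and the change was alike in the 3 pairs (log2 0.92, 0.77 and 1.00). The mean rose from 52.5 ± 2.26 to 99.1 ± 10.9 CPM (SD, n = 3 each), by a log2 of 0.90 (SE 0.09 in the unpaired limma fit), or 1.87-fold on the log2(CPM + 1) scale. Limma's adjusted p was 0.0111 unpaired and 1.15e-08 blocked. Among the 12293 tested genes Birc3 ranked 66th by the size of its rise. The unpaired call was lost without Control 2, Control 3 or TNF 1 (limma adjusted p of 0.0719, 0.0630 and 0.0539), while the log2 change stayed between 0.82 and 0.97 whichever library was left out.

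Birc2, encoding cIAP1, lies 11643 bases from Birc3 on the same strand of chromosome 9 (mm10, 7818226 to 7837057, with Birc3 at 7848701 to 7873170). Control libraries held 31.9, 32.3 and 28.3 CPM. TNF libraries held 48.1, 51.5 and 33.0 CPM. TNF 3 thus lay only just above the highest Control library, far below TNF 1 and TNF 2. Birc2 rose from 30.8 ± 2.21 to 44.2 ± 9.87 CPM (SD, n = 3), a log2 of 0.48 (limma's adjusted p 0.415 unpaired and 0.000286 blocked). Within the pairs its log2 change was 0.58, 0.66 and 0.21. The blocked SE of 0.07 is that of the mean change and borrows spread from other genes. The SD between the 3 pairs was 0.24, the largest among the tested members. It describes single pairs and is not on the same footing as that SE. The blocked call of Birc2 thus rests partly on spread borrowed from other genes, and its own pairs were not tested alone.

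The paralogs therefore differed most in replicate 3, where the change of Birc3 was the largest of its 3 pairs and that of Birc2 the smallest. Per kilobase of counted length, Birc3 stood at 1.22, 1.24 and 1.49 times Birc2 in Control 1, 2 and 3. The ratio was 1.54, 1.34 and 2.59 in TNF 1, 2 and 3, higher than in the Control library of the same number each time. As groups they overlapped, since TNF 2 lay below Control 3. The log2 ratio was 0.42 higher with TNF, with a two-sided exact permutation p of 0.20. That test ignored the replicate numbers, and with 3 libraries against 3 it cannot go below 0.10.

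Xiap, an X-linked gene whose protein binds and blocks caspases, was at 159, 173 and 186 CPM in Control. It was at 138, 162 and 176 CPM with TNF. The groups overlapped widely, but each TNF library lay below the Control library of its own number. Xiap fell by 0.12 on the log2 scale, from 173 ± 13.3 to 159 ± 19.3 CPM (SD, n = 3; limma's adjusted p 0.923 unpaired and 0.0241 blocked). Without replicate 1 the log2 was -0.08 and the blocked adjusted p 0.225 (limma). Birc3 stood at 0.541, 0.516 and 0.505 of the Xiap level per kilobase in Control and at 1.20, 0.944 and 1.08 with TNF, a pair chosen after its values were seen.

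**Figure D1:**
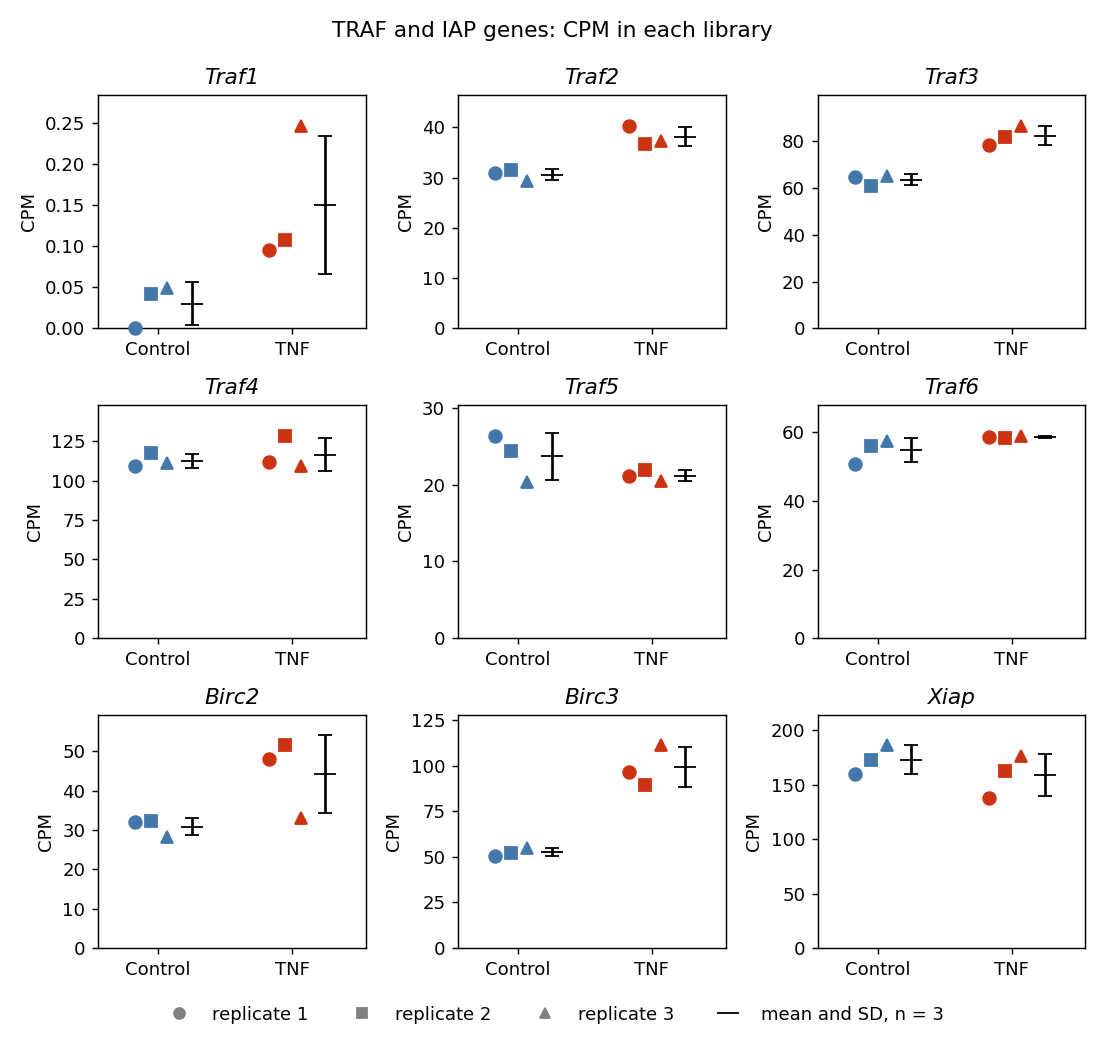
CPM of each gene in every library, on a linear axis from 0 with its own scale per gene; marker shapes give the replicate number, and the bar beside the points is the mean ± SD of 3 libraries. The groups do not overlap for Birc3, Birc2, Traf3, Traf2 and Traf6 or for the nearly unread Traf1, and they overlap for Traf4, Traf5 and Xiap.

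Among the adaptors, Traf3 and Traf2 rose by about equal steps. Traf3, the adaptor that holds NIK in check, was at 64.9, 60.9 and 65.1 CPM in Control and 78.6, 82.0 and 86.7 CPM with TNF. It rose by a log2 of 0.37 (SE 0.07 unpaired), from 63.6 ± 2.34 to 82.4 ± 4.10 CPM (SD, n = 3), with limma's adjusted p at 0.0918 unpaired and 3.34e-05 blocked. No TNF library came near the Control range, and the 3 pairs gave 0.27, 0.42 and 0.41. Of its span on chromosome 12 (111166370 to 111267155), 18122 bases were left out of the count. That number equals the overlap with 4930595D18Rik, an annotated gene on the opposite strand.

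Traf2, the adaptor that carries the cIAPs to the receptor, was at 30.9, 31.5 and 29.3 CPM in Control. The TNF libraries stood at 40.3, 36.8 and 37.4 CPM. The groups were apart, with the smallest step in replicate 2 (log2 0.38, 0.22 and 0.34 in the 3 pairs). Traf2 rose by 0.31 (SE 0.08 unpaired), from 30.6 ± 1.12 to 38.2 ± 1.92 CPM (SD, n = 3), with limma's adjusted p at 0.217 unpaired and 0.00132 blocked. The gene lies on chromosome 2 (25517982 to 25546940) and was counted over its whole span.

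Traf6, which serves Toll-like and interleukin-1 receptors and CD40, was at 50.8, 55.8 and 57.4 CPM in Control and at 58.5, 58.4 and 59.0 CPM with TNF. The groups did not overlap, though the gap between Control 3 and TNF 2 was under 1 CPM. Its log2 change of 0.10 did not pass (adjusted p 0.883 unpaired and 0.167 blocked, limma), and the 95% interval ran from -0.07 to 0.27 unpaired and from -0.002 to 0.20 blocked. Of the 8 tested genes, 5 had TNF libraries wholly above Control, as did 6.59% of all tested genes, while 6.66% of all tested genes and none of these 8 had them wholly below.

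Traf4, an adaptor known for roles in epithelial development, was at 109, 118 and 111 CPM in Control. It was at 112, 129 and 109 CPM with TNF, so the groups overlapped. The change was 0.04 (95% interval -0.14 to 0.23 unpaired, -0.04 to 0.13 blocked), and limma's adjusted p was 0.995 unpaired and 0.473 blocked. Without TNF 2 the sign turned, at -0.03.

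Traf5, an adaptor of several lymphocyte receptors, was at 26.4, 24.4 and 20.3 CPM in Control and 21.1, 21.9 and 20.5 CPM with TNF. All TNF values sat inside the Control range, and the pairs gave -0.31, -0.14 and 0.01. Neither fit called its change of -0.15 (adjusted p 0.904 unpaired and 0.195 blocked, limma); the blocked 95% interval ran from -0.31 to 0.01. In its span 81 bases were uncounted, the length of the microRNA gene Mir3473c within it.

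Traf1, a TRAF without the RING domain that is induced by NF-κB in immune cells, was close to absent. Control 1, 2 and 3 held 0, 1 and 1 reads and TNF 1, 2 and 3 held 2, 2 and 5 reads. A count of 0 allows up to 3 reads, or 0.166 CPM in Control 1, and only TNF 3 lay above 3 reads. Pooled reads were 4.73 times as frequent with TNF, with an exact (Clopper-Pearson) 95% interval of 0.978 to 44.9 that covers counting error only. In the authors' deposited table Traf1 had a log2 fold change of 2.06 and an adjusted p of 0.116.

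**Figure D2:**
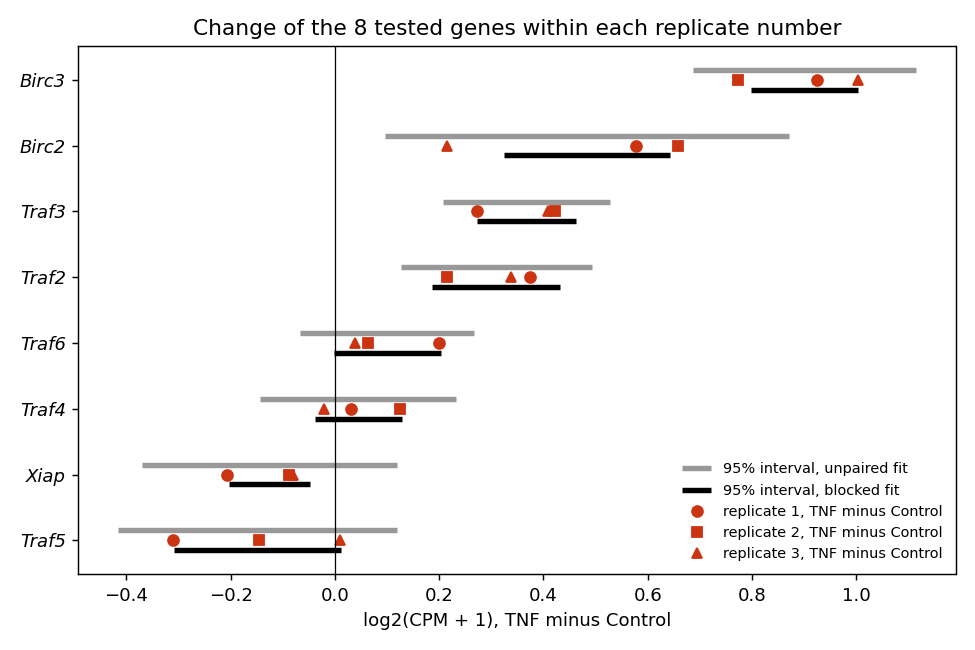
Change of the 8 tested genes on the log2(CPM + 1) scale, TNF minus Control: red markers are the 3 same-numbered pairs, and bars are limma's 95% intervals without (grey) and with (black) the replicate block. Birc3 stands apart at 0.77 to 1.00 in its pairs. The intervals are for the mean change, and single pairs of Birc3, Birc2, Traf3, Traf5 and Xiap lie outside the blocked ones. Replicate 3 of Birc2 (0.21) lies farthest out, below the interval of that gene.

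The authors' deposited table, which called 15.2% of its genes at that threshold (6.85% higher and 8.32% lower), gave the same 5 genes as called, 4 higher and 1 lower. Its log2 fold changes were 0.91 for Birc3, 0.50 for Birc2, 0.37 for Traf3, 0.32 for Traf2 and -0.12 for Xiap.

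Levels between genes can be set side by side per kilobase of counted length, which here takes in introns as well as exons. Exons make up between 4.79% (Traf5) and 45.6% (Traf4) of the members' spans, so this scale is not one of mature mRNA. In Control, Traf4 was highest at 15.8 ± 0.635 CPM per kb, followed by Xiap at 4.13 ± 0.318. Traf6 (2.35 ± 0.148) and Birc3 (2.14 ± 0.0923) overlapped between libraries. Birc2 (1.64), Traf2 (1.06), Traf3 (0.770) and Traf5 (0.249) came next, each with its libraries apart from its neighbours', and Traf1 was last. With TNF, Birc3 stood at 4.05 ± 0.447 CPM per kb, in the range of Xiap (3.79 ± 0.461), and Birc2 (2.35 ± 0.524) overlapped Traf6 (2.52 ± 0.0139). The order among Traf2, Traf3 and Traf5 was as in Control.

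**Figure D3:**
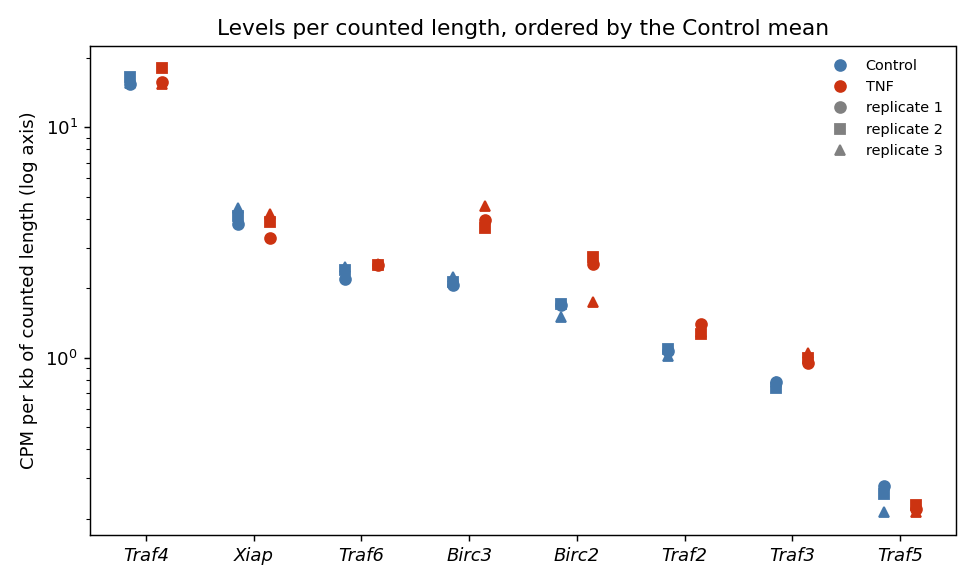
CPM per kilobase of counted length in every library, log axis, genes ordered by their Control mean; Traf1 is left out because most of its values are at or under 3 reads. Birc3 moves from the level of Traf6 in Control (blue) to that of Xiap with TNF (red).

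The partners of these proteins were described by lists chosen by role, and each count below stands beside 9.40% of all tested genes that rose and 11.2% that fell in the blocked fit. Of 11 tested receptors that recruit TRAFs, 2 rose, Tnfrsf1b, the second TNF receptor (32.7 ± 1.71 to 39.9 ± 2.45 CPM, log2 0.28), and Il17ra, a subunit of the interleukin-17 receptor (log2 0.21). The first TNF receptor gene, Tnfrsf1a, named here for its role, was at 88.3 ± 2.74 and 86.7 ± 7.21 CPM (SD, n = 3), with a blocked adjusted p of 0.707 in limma. The list median was 0.05. Without replicate 2 the blocked fit called 1 receptor.

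Of 25 tested TRAF partners and regulators, 8 rose and 17 did not pass, with a median of 0.07. Ikbke, a kinase that binds the TRAF adaptor TANK, went from 21.9 ± 3.72 to 107.5 ± 8.53 CPM (log2 2.25). Map3k14, the kinase NIK that TRAF3 and the cIAPs hold low at the protein level, rose from 15.4 ± 0.203 to 22.7 ± 0.954 CPM (log2 0.53). Sqstm1, the scaffold p62 that binds TRAF6, rose by 0.52, and Tnip1, a partner of A20, by 0.50. The kinase and adaptor genes Ripk1 and Tradd, named for their role, had log2 changes of 0.03 and 0.02 and did not pass (blocked adjusted p 0.699 and 0.897, limma).

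Of 16 tested genes of ubiquitin enzymes and their partners at the TRAF and IAP complex, 5 rose, 1 fell and 10 did not pass, with a median of 0.01. Tnfaip3, the ubiquitin-editing enzyme A20, rose from 15.7 ± 4.71 to 54.8 ± 16.3 CPM (log2 1.74). Spata2 and Cyld, which work together as a deubiquitinating complex, rose by 0.20 and 0.15, and the ligase gene Itch fell by 0.15. Leaving out replicate 1 or 3 left 3 higher members, and leaving out replicate 2 left 1. The linear ubiquitin ligase genes Rnf31, Rbck1 and Sharpin, named for their role, changed by 0.03, 0.01 and -0.04 and did not pass.

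Among 11 tested genes of other IAPs, of proteins that antagonise them and of caspases and their regulators, 5 rose and 6 did not pass; the median was 0.16. Naip2, an IAP family member that senses bacterial proteins, rose from 9.71 ± 1.28 to 18.7 ± 2.98 CPM (log2 0.88). Its paralogs Naip1, Naip5 and Naip6 had 9, 13 and 0 reads in all, and whether reads are shared among them was not tested. Xaf1, whose protein binds XIAP, rose by 0.32 and Htra2, a mitochondrial protease that can cleave IAPs, by 0.27. Diablo, the IAP antagonist Smac, named for its role, changed by 0.04 and did not pass (blocked adjusted p 0.674, limma). Without replicate 3, or without a filter, the members called higher numbered 3.

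On the list for the noncanonical NF-κB branch, which TRAF2, TRAF3 and the cIAPs restrain, 4 of 8 tested genes rose, with a list median of 0.26. Relb rose from 18.7 ± 0.717 to 50.9 ± 6.45 CPM (log2 1.39) and Nfkb2 from 60.0 ± 8.60 to 154 ± 12.7 CPM (log2 1.36). Nfkbie, an inhibitor of NF-κB that is not particular to this branch, rose from 3.87 ± 0.193 to 10.1 ± 1.92 CPM (log2 1.17). Map3k14 also rose and is counted among the TRAF partners as well. Ltbr and Tnfrsf12a, which did not pass, are likewise on the receptor list. RNA levels of these genes do not give the activity of the noncanonical branch, which was not tested. Of the MAP kinase genes downstream of TRAFs, 3 of 13 tested rose, 1 fell and 9 did not pass, with a median of -0.01. Mapk11, encoding p38β, rose from 1.45 ± 0.180 to 4.02 ± 0.763 CPM (log2 1.03), Mapk9 (JNK2) by 0.22 and Map2k3 by 0.12, while Mapk14 (p38α) fell by 0.19. Without replicate 1 or replicate 2, 2 MAP kinase genes were called higher. Across these lists the unpaired fit called Ikbke, Tnfaip3, Relb, Nfkb2 and Nfkbie. The unpaired call of Tnfaip3 was lost whichever library was left out, without a filter and in limma-voom, and in each of these cases 2 genes of the noncanonical list passed.

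**Figure D4:**
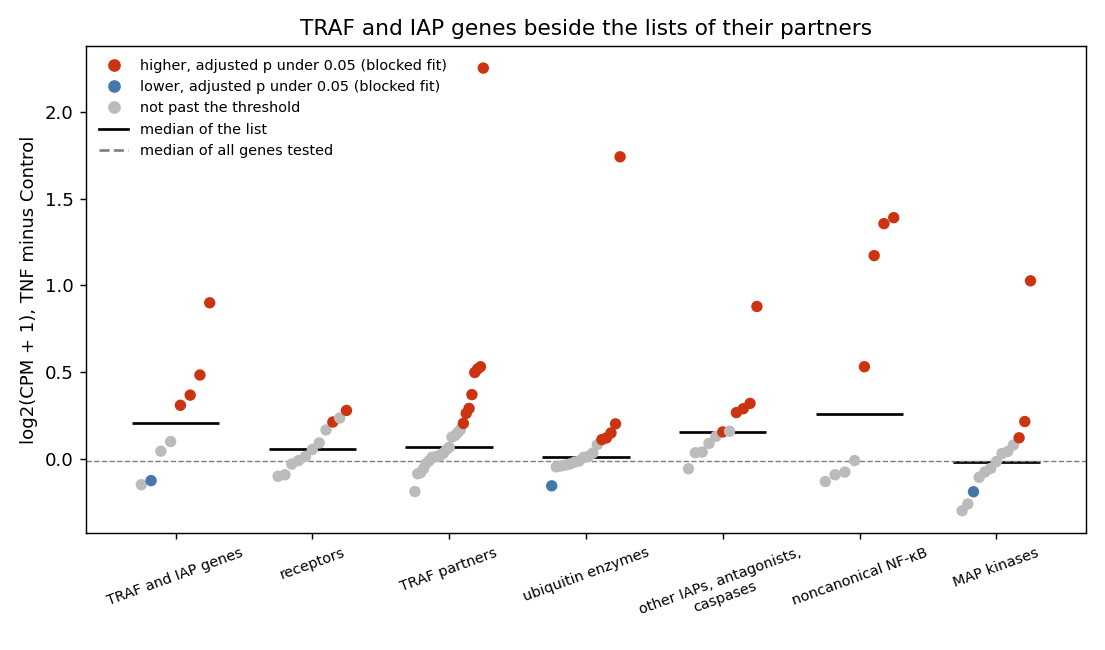
Log2 change, TNF minus Control, of each tested TRAF and IAP gene and of each tested gene in the 6 partner lists; red and blue points passed the blocked threshold, grey points did not, black lines are list medians and the dashed line the median of all tested genes (-0.01). Most partners lie near that line, and single genes reach 1.03 to 2.25.

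The pattern of Birc3, the gene with the lowest blocked p of the 9, was compared with 9799 other genes at a mean of at least 5 CPM. The most alike over the 6 libraries were Sowahc (Pearson r 0.991), Sgms1, a sphingomyelin synthase gene (0.989), and Adam17, the protease that sheds membrane-bound TNF (0.988). Next came 3110043O21Rik (0.986) and Sh3bgrl2 (0.986). On average Adam17 went from 50.7 to 74.6 CPM and Sowahc from 26.1 to 30.4 CPM. The 6 points share libraries and group means, and 61 genes had an r above 0.95, so this is a description only.

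Libraries held between 17612060 and 25114289 reads over genes, and the 8 tested genes had 409 to 4173 reads per library. Hepatocyte markers summed to 32843 to 49644 CPM in Control and 31937 to 46488 CPM with TNF, led by Alb, and 3 of 6 tested (Apoa1, Ttr and Hnf4a) fell. Macrophage markers summed to 183 to 309 and 217 to 354 CPM, nearly all from Cd68 and Cd14; the defining Adgre1 and Clec4f had 12 and 1 reads over all libraries, and 1 of 2 tested markers, Cd14, rose. Endothelial markers summed to 84.3 to 158 and 80.4 to 148 CPM (1 of 7 tested, Stab2, fell). Stellate markers summed to 18.3 to 67.6 and 19.8 to 45.3 CPM (1 of 4, Reln, fell), and cholangiocyte markers to 25.5 to 35.2 and 32.5 to 54.5 CPM (1 of 3, Sox9, rose). Most of the stellate sum came from Reln (mean 38.3 CPM, next Dcn at 1.55). Sox9 gave most of the cholangiocyte sum (28.9 CPM, next Spp1 at 6.64). Des, Krt7 and Krt19 had 20, 1 and 23 reads over all libraries. Lymphocyte and neutrophil markers summed to under 1 CPM, with Cd3d, Nkg7 and Ly6g at 0 reads, which allows up to 3 reads a library. The part of other cells in the changes above was not tested, and in these bulk libraries fewer cells of a type and less RNA per cell cannot be told apart.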

How the data were processed

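PolyA RNA of 3 Control and 3 TNF libraries was compared; groups and replicate numbers come from the sample titles. Per the submitters' processing notes, reads were aligned with STAR 2.6.1a to mm10; the counter, its annotation and its strand setting were not given in the sources used here. Per library, the authors deposited log2 CPM values with a prior added. For each gene the deposited columns further hold the authors' p-value, raw and adjusted, their log2 fold change and the score of a likelihood ratio test. Counted length equalled the gene span in 85.0% of genes, so introns were counted. After subtraction of the floor (-3.35, or 0.0978 CPM), 100% of 118584 values were whole reads within 0.001, and the authors' scaling was kept.

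The unit was log2, so limma 3.58.1 (R 4.3.3) on log2(CPM + 1) with a trended prior was used, as planned for log2 values. A gene was kept with at least 10 reads (at the median depth) in 3 libraries and 15 overall; 7471 of 19764 were not tested. Group was the only term, with Benjamini-Hochberg adjustment over the 12293 genes. Deviations from group means correlated at 0.78, 0.79 and 0.79 between same-numbered libraries and at -0.47 to -0.34 between others. Centring each group on its own mean pulls the others below 0 when same-numbered values are high, so the negative values add no separate evidence. By the rule for pairing (each above 0.1) the numbers pair the libraries, so blocked values are given; no label ties a number to a day or an animal. Alternatives were the block, limma-voom on recovered reads, scalings, pseudocounts, filters, the deposited values and leaving out libraries. The named genes are the 9 members, up to 4 called genes per list by size of change, and the 5 most correlated with the member of lowest blocked p; exceptions are marked, and 1 gene that the rule names is not reported here. Members and lists were chosen with earlier results of these data known.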

Additional observations from a re-analysis of the deposited data

How the results depend on the processing

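The count of genes past the threshold was 53 in the unpaired fit and 2530 with the replicate block. Without a filter the unpaired count was 31, with more genes tested. Leaving out 1 library gave 9 to 30 genes, with fewer samples. Of the TRAF and IAP genes, 1 passed unpaired and 5 with the replicate block. Leaving out 1 library gave 0 to 1; at 0 (without Control 2, Control 3 or TNF 1) limma gave 3 or 4 members an unadjusted p below 0.05. Under the block, 4 or 5 members passed in all 11 alternatives. Birc3, Birc2, Traf3 and Traf2 passed in each, and Xiap was lost without a filter (adjusted p 0.0733, limma) and without replicate 1 (0.225). In the blocked fits that left out a replicate, fewer libraries remained and the p-values leaned more on spread borrowed from other genes. For Birc3, limma's blocked adjusted p was 8.09e-30 without replicate 1, against 1.15e-08 with all libraries. Calls in those fits therefore add little separate weight. Leaving out 1 library moved the log2 change of Traf4 between -0.0277 (without TNF 2, where the sign turned) and 0.0883 (without TNF 3), and the cause was not tested. The other tested members kept their sign in every alternative run, but small unpaired changes moved by over 1.5 times without 1 library. Xiap went from -0.12 to -0.03 (without TNF 1), -0.07 (without Control 3) and -0.20 (without TNF 3). Traf5 went from -0.15 to -0.07 (without Control 1) and -0.25 (without Control 3), and Traf6 from 0.10 to 0.05 (without Control 1). Median-of-ratios scaling with the block gave 1290 genes higher and 1282 lower, against 1156 and 1374. TMM scaling and count-model tests were not run, though whole reads could be recovered. Depth limits Traf1 alone among the 9 genes, at 11 reads in all.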
